A study of Homo sapiens with 6 samples.

Results

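HMOX1 and 9 other genes of heme breakdown and iron handling were followed on 6 Affymetrix U133 Plus 2.0 arrays of SW-1990 cells, a human line of pancreatic adenocarcinoma established from a splenic metastasis. The cells had been infected with lentivirus carrying a short hairpin RNA (shRNA) against the prolactin receptor gene PRLR (sh-PRLR, 3 arrays) or a scrambled shRNA (sh-Ctrl, 3 arrays), and both groups had been under puromycin (1 μg/ml) for over 7 days. The arrays of a group are given as biological replicates, and whether they stem from separate infections is not stated. The genes were taken by symbol: every probe set (the set of oligonucleotides that reads 1 transcript region) annotated to HMOX1, HMOX2, BLVRA, BLVRB, FTH1, FTL, TFRC, SLC40A1, FECH or SLC11A2 and to no other gene. This gave 26 of 54675 probe sets, which stand for 9 of 19775 genes, as 0 probe sets carried the symbol FTH1 in the annotation used here. Of several probe sets for a gene, the brightest over the 6 arrays stands for it.

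Heme is opened by heme oxygenase, encoded by the inducible gene HMOX1 and the constitutive gene HMOX2, into biliverdin, carbon monoxide and iron. Biliverdin reductases reduce biliverdin to bilirubin, and the freed iron is stored in ferritin or leaves the cell through ferroportin. Iron regulatory proteins bind stem-loops called iron responsive elements in ferritin and transferrin receptor mRNAs, which lets a cell with much iron make ferritin and lower its transferrin receptor. HMOX1 itself is a classic target of the activator NRF2 and of the heme-sensing repressor BACH1, both of which pair with small MAF proteins at antioxidant response elements.

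RefSeq promoter windows, from 250 bases before to 50 bases after a transcript start on GRCh38.p14, were at hand for 8 of the 10 genes (12 windows, of which SLC11A2 has 4 and HMOX2 has 2). HMOX1 and FTH1 have none in the table. The core of the antioxidant response element, TGACNNNGC, was searched on both strands and lay in 13.3% of all 35116 windows. Among these genes it was found in FECH, at position -38 from the start on the opposite strand. The iron responsive element loop CAGTGN, read on the transcribed strand in the first 50 transcribed bases, lay in 6.36% of all windows, and among these genes in FTL, from base 39. Bases further along a transcript lie outside this search, which therefore cannot show whether the other genes carry the loop. The box TATAAA, which positions the polymerase, was searched on both strands and lay in 11.5% of all windows, and among these genes in TFRC, at position -33 from the start. The 3 motifs do not overlap where they were found. Shown are the 100 bases before the start of BLVRB and TFRC, the genes with the largest differences after HMOX1 among those above the median gene level, those of FECH, and the FTL stretch of 30 transcribed bases with the loop. Capitals mark the matches, and BLVRB has none.
BLVRB, chr19:40465746-40465845, minus strand: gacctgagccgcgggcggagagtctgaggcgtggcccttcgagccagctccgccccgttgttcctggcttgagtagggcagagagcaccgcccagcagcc
TFRC, chr3:196082091-196082190, minus strand: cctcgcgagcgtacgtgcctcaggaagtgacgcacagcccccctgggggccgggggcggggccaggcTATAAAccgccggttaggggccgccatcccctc
FECH, chr18:57586703-57586802, minus strand: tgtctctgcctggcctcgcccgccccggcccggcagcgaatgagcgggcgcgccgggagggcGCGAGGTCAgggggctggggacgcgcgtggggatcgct
FTL, chr19:48965329-48965358, plus strand: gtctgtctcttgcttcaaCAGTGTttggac
A match is a run of letters in a window, and binding was not measured.

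PRLR, averaged over its 7 probe sets, read 3.94, 4.38 and 4.19 on the sh-PRLR arrays, against 5.23, 5.03 and 4.79 on the sh-Ctrl arrays. The groups did not overlap in this average, and each of the 7 was dimmer than the median gene (7.23). Taken singly, all 7 had a lower mean in sh-PRLR, 3 without overlap, and 0 passed limma's test at an adjusted p of 0.05. The brightest, 227629_at, overlapped, at 5.46 in sh-PRLR and 5.69 in sh-Ctrl, a difference of -0.23. All values here are log2 expression values as deposited, a difference is the sh-PRLR mean minus the sh-Ctrl mean, and ± gives the SD over 3 arrays. Of 6 epithelial and duct cell markers, all lay above the median gene level, and 2 were lower in sh-PRLR in limma at an adjusted p under 0.05, CDH1 by a difference of -0.17 and ELF3 by -0.90; their part in the results was not tested. Above the median gene level lay 0 of 6 macrophage, 0 of 3 measured erythroid and 1 of 6 fibroblast markers, and 0 of these passed the test. The fibroblast marker was COL1A1, at 7.99 in sh-PRLR and 7.79 in sh-Ctrl with overlapping arrays. Array-wise means of the macrophage list ran from 4.22 to 5.54 in sh-PRLR and from 4.18 to 5.39 in sh-Ctrl, those of the erythroid list from 4.94 to 5.64 in sh-PRLR and from 4.46 to 5.86 in sh-Ctrl, and those of the fibroblast list from 4.50 to 5.11 in sh-PRLR and from 5.21 to 5.32 in sh-Ctrl. Fewer cells making a transcript and less of it in each cell cannot be told apart on such arrays.

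The 10 genes were chosen on their differences between sh-PRLR and sh-Ctrl in these same values, so their values are given as a description and without a test. For reference, an adjusted p under 0.05 in limma's fit with intensity-dependent variance was reached by 7.66% of all genes and by 14.6% of genes above the median gene level. Of the 9 genes measured, 3 did so: HMOX1 and BLVRB, which were higher in sh-PRLR, and TFRC, which was lower. BLVRB did not when each array was centred on its median. In limma with default settings, 0 of the 9 passed, and 0.0202% of all genes. The arrays of the groups did not overlap for 5 of the 9 genes, 2 higher and 3 lower in sh-PRLR, against 25.8% of all genes, 11.7% higher and 14.1% lower. With 3 arrays a group, small differences cannot be measured well.

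**Figure D1:**
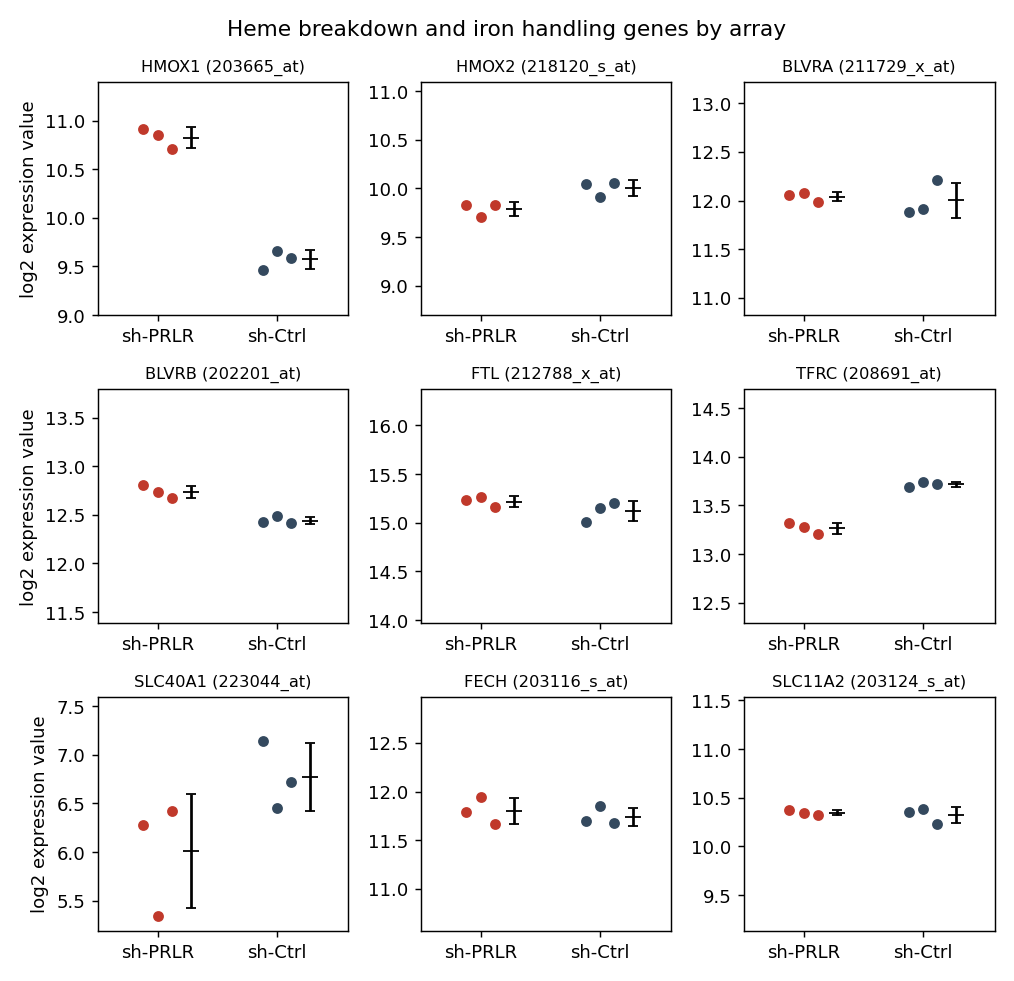
Log2 expression value of each gene on every array (points, sh-PRLR left and sh-Ctrl right) with the group mean and SD (bars, n = 3 each); all panels span the same number of log2 units. HMOX1 and BLVRB sit higher on every sh-PRLR array, and TFRC, HMOX2 and, by a narrow margin, SLC40A1 sit lower. BLVRA, FTL, FECH and SLC11A2 overlap between the groups.

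HMOX1 had the largest difference of the 9 genes. Its single probe set, 203665_at, read 10.92, 10.85 and 10.71 in sh-PRLR, against 9.46, 9.66 and 9.59 in sh-Ctrl. Every sh-PRLR array lay about a full log2 unit above every sh-Ctrl array, and the SDs, 0.11 in sh-PRLR and 0.10 in sh-Ctrl, were far smaller than the gap. The difference was 1.25 (SE 0.08), or 2.38-fold.

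HMOX2, the constitutive heme oxygenase, had small differences of opposite sign in its 2 probe sets. Its brighter probe set, 218120_s_at, read 9.83, 9.70 and 9.83 in sh-PRLR, against 10.05, 9.91 and 10.05 in sh-Ctrl. All sh-PRLR arrays were lower, by a mean of -0.22 (SE 0.08, 0.86-fold). The other, 218121_at, read 7.78, 7.38 and 7.49 in sh-PRLR, against 7.78, 8.07 and 6.26 in sh-Ctrl, so that the groups overlapped and the mean difference, 0.18, had the opposite sign. That probe set had an SD of 0.21 in sh-PRLR and 0.97 in sh-Ctrl.

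Of the biliverdin reductases, BLVRB, which also reduces flavins, was higher in sh-PRLR. Its single probe set, 202201_at, read 12.80, 12.73 and 12.67 in sh-PRLR, against 12.42, 12.48 and 12.42 in sh-Ctrl. No array of one group reached the other, and the difference was 0.30 (SE 0.05, 1.23-fold). BLVRA, the biliverdin-IXα reductase, had 5 probe sets, 3 with a higher and 2 with a lower mean in sh-PRLR. The brightest, 211729_x_at, read 12.05, 12.07 and 11.99 in sh-PRLR, against 11.88, 11.91 and 12.21 in sh-Ctrl, a difference of 0.04 (SE 0.08) with overlapping groups. The next, 203773_x_at, at nearly the same level, read 12.05, 11.95 and 12.19 in sh-PRLR, against 11.73, 11.92 and 11.85 in sh-Ctrl, without overlap and with a difference of 0.23 (SE 0.07). The remaining BLVRA probe sets gave -0.02 (203771_s_at), 0.25 (229109_s_at) and -0.14 (203772_at), all with overlap. BLVRA thus gave no common direction over its probe sets.

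FECH, ferrochelatase, which inserts iron into protoporphyrin in the last step of heme synthesis, showed no separation of the groups in any of its 3 probe sets. The brightest, 203116_s_at, read 11.79, 11.94 and 11.67 in sh-PRLR, against 11.70, 11.85 and 11.67 in sh-Ctrl. Its difference of 0.06 (SE 0.08) was smaller than the SD of either group, 0.14 in sh-PRLR and 0.10 in sh-Ctrl. The dimmer probe sets 203115_at and 229696_at gave -0.26 (SE 0.26) and -0.09 (SE 0.24).

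FTL, the light chain of ferritin, was read by 2 probe sets near the top of the scale. Probe set 212788_x_at read 15.23, 15.26 and 15.16 in sh-PRLR, against 15.01, 15.15 and 15.20 in sh-Ctrl. The groups overlapped, and the difference was 0.10 (SE 0.05). Probe set 213187_x_at read 14.93, 15.04 and 14.87 in sh-PRLR, against 14.74, 14.78 and 14.84 in sh-Ctrl, without overlap and with a difference of 0.16 (SE 0.05, 1.12-fold). Both names end in _x_at, which marks oligonucleotides that can read related transcripts, and FTL has many pseudogene copies. For the heavy chain gene FTH1 no value is given. The probe set annotated to its pseudogene FTH1P5, 211628_x_at, named after its values were seen, read 15.06, 15.04 and 14.96 in sh-PRLR, against 14.99, 15.03 and 15.12 in sh-Ctrl, and which ferritin transcripts it reads was not examined.

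TFRC, the transferrin receptor that takes up iron-loaded transferrin, was lower in sh-PRLR in both of its bright probe sets. Probe set 208691_at read 13.32, 13.27 and 13.21 in sh-PRLR, against 13.69, 13.74 and 13.72 in sh-Ctrl. Probe set 207332_s_at read 12.78, 12.73 and 12.56 in sh-PRLR, against 13.19, 13.22 and 13.24 in sh-Ctrl. Neither had any overlap, and the differences were -0.45 (SE 0.04, 0.73-fold) and -0.52 (SE 0.06, 0.70-fold).

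The other 3 TFRC probe sets lay far lower and did not separate the groups. Probe set 237215_s_at read 6.81, 6.94 and 7.03 in sh-PRLR, against 7.70, 6.87 and 7.11 in sh-Ctrl. Probe sets 240686_x_at and 237214_at gave positive differences, 1.24 (SE 0.78) and 1.15 (SE 0.98), at mean levels of 4.29 and 3.67. In each of these a single sh-Ctrl array stood low, replicate 1 at 2.27 in 240686_x_at and replicate 3 at 0.97 in 237214_at. Averaging all 5 probe sets turned the TFRC difference to 0.22.

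SLC11A2, the iron transporter DMT1, which moves iron out of endosomes after uptake by the transferrin receptor, did not separate the groups in any of 5 probe sets. The brightest, 203124_s_at, read 10.37, 10.34 and 10.32 in sh-PRLR, against 10.35, 10.38 and 10.23 in sh-Ctrl, a difference of 0.03 (SE 0.07). Probe sets 203123_s_at and 203125_x_at each gave 0.09. Of the 2 dim ones, 237106_at gave 0.57 (SE 0.52) and 210047_at gave -0.94 (SE 0.81). In the last of these, sh-PRLR replicate 1 stood at 2.78 while the other 5 arrays lay between 5.70 and 6.53. SLC11A2 thus had close values in both groups in its 3 brighter probe sets.

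SLC40A1, ferroportin, the cellular iron exporter, was the dimmest of the genes. Probe set 223044_at read 6.27, 5.34 and 6.42 in sh-PRLR, against 7.15, 6.45 and 6.72 in sh-Ctrl. The groups were apart by a hair, with the highest sh-PRLR array at 6.42 and the lowest sh-Ctrl array at 6.45, and the difference of -0.76 had an SE of 0.34. Without sh-PRLR replicate 2 the difference was -0.42. The other probe set, 233123_at, read 5.15, 5.63 and 5.84 in sh-PRLR, against 5.81, 5.53 and 4.36 in sh-Ctrl, a difference of 0.30 (SE 0.49) of the opposite sign.

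**Figure D2:**
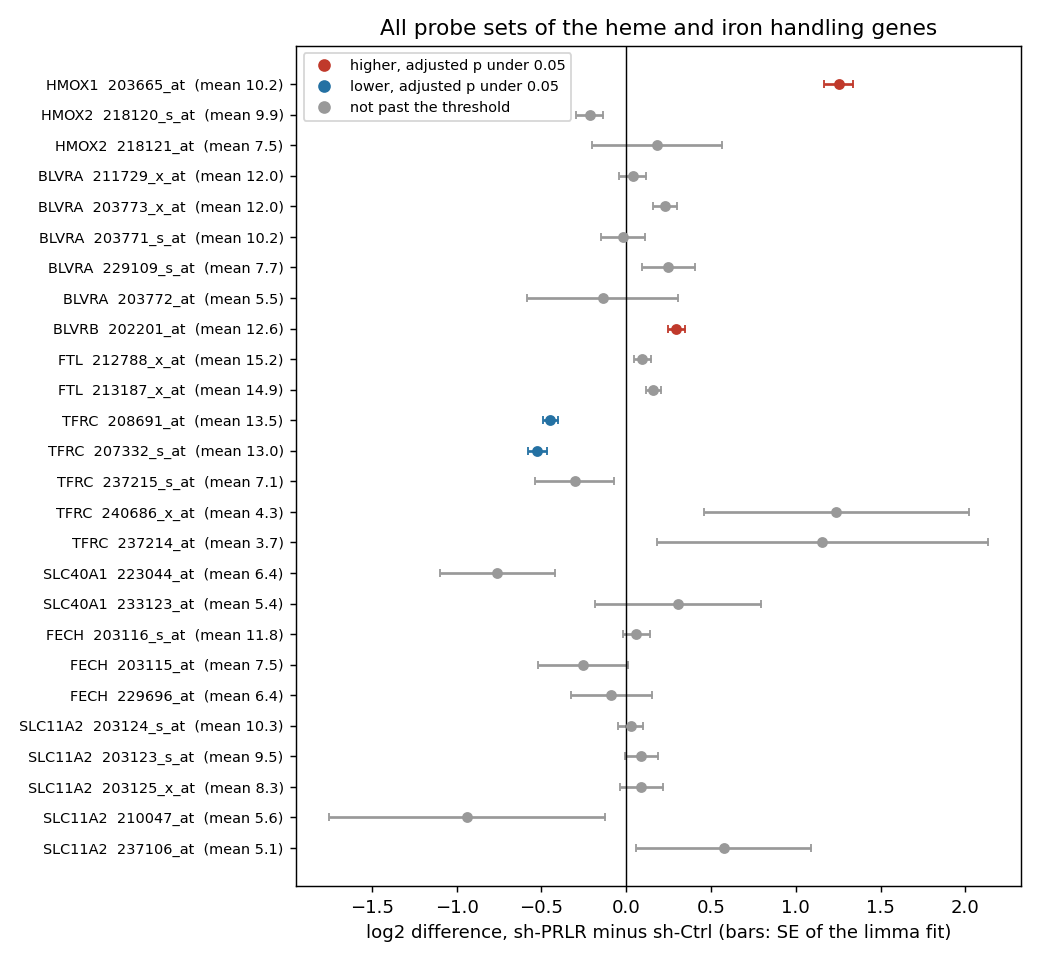
Difference of each of the 26 probe sets, sh-PRLR minus sh-Ctrl in log2 units (points), with the SE of the limma fit (bars); labels give the mean level over 6 arrays and colours the side of the 0.05 threshold. HMOX1 at 1.25 and the paired TFRC probe sets at -0.45 and -0.52 have short bars, whereas the dim TFRC and SLC11A2 probe sets have the longest bars.

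Across the 26 probe sets, 16 had a higher and 10 a lower mean in sh-PRLR. The arrays of the groups did not overlap for 8 of them, 4 in each direction, against 22.6% of all 41091 probe sets with 1 gene symbol, 11.0% higher and 11.6% lower. Limma's adjusted p was under 0.05 for 4, the HMOX1 and BLVRB probe sets and both bright TFRC probe sets, against 4.67% of all such probe sets, 2.17% higher and 2.50% lower. Spread depended on level: the median within-group SD was 0.56 for the 9 probe sets below the median gene level and 0.11 for the 17 above it. The differences of the 9 ran from -0.94 to 1.24 with 0 past the threshold, and those of the 17 from -0.52 to 1.25 with 4 past it.

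The 5 genes whose pattern over the 6 arrays was most like that of HMOX1, by Pearson correlation among 514 genes above the median gene level with a difference of at least 0.5 in size, were AKR1C1, UPP1, AKR1C2, CTSL and SQSTM1. Their correlations ran from 0.992 to 0.999. All 6 arrays and their grouping are shared by every pair, and the candidates were filtered on the group difference. The correlations thus largely restate that difference. AKR1C1 and AKR1C2 encode aldo-keto reductases, UPP1 encodes uridine phosphorylase, CTSL a lysosomal protease and SQSTM1 an autophagy receptor. AKR1C1 and AKR1C2 were read by _x_at probe sets, whose oligonucleotides can read related transcripts. Whether these are separate signals was not examined. UPP1 read 13.12, 13.09 and 13.02 in sh-PRLR, against 12.23, 12.30 and 12.26 in sh-Ctrl. It was higher on every sh-PRLR array, like the other 4.

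The other genes of heme and iron handling were taken from 8 lists that hold none of the 10 genes above. All 8 were drawn up with earlier results of these data known, so their counts are not independent evidence. Here "rose" and "fell" mean an adjusted p under 0.05 in limma's fit with intensity-dependent variance over all 19775 genes. Of 99 measured list genes 19 rose and 13 fell, against 3.34% of all genes that rose and 4.32% that fell. Without the list of BACH1 and NRF2 targets, which holds 10 of the 19, 9 of 88 rose and 13 fell, with a median of -0.07. Of the 99, 82 lay above the median gene level, where 6.43% of genes rose and 8.17% fell. The counts of the single lists below are to be read beside these shares. The count of 32 was 14 with each array centred on its median, 19 without sh-Ctrl replicate 1, 21 without sh-Ctrl replicate 2 and 0 with limma's default settings, where 4 of all genes passed and 3209 had an unadjusted p under 0.05. Median centring also changed the split over all genes, of which 28.3% of calls were higher in place of 43.6%.

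Among the regulators of HMOX1, MAFF and MAFG, which encode small MAF proteins, rose. MAFF averaged 12.55 ± 0.05 in sh-PRLR and 11.81 ± 0.12 in sh-Ctrl, a difference of 0.74 (SE 0.07, limma adjusted p = 0.000162). MAFG averaged 11.38 ± 0.08 in sh-PRLR and 10.99 ± 0.10 in sh-Ctrl (0.39, limma adjusted p = 0.00704). NFE2L1, a factor related to NRF2 that controls proteasome genes, rose as well (0.34, limma adjusted p = 0.00641), and EPAS1, the hypoxia-inducible factor HIF-2α, fell (-0.42, limma adjusted p = 0.0291). In all 3 rose and 1 fell of 11, with a median of 0.12 against -0.00 over all genes. The calls of NFE2L1, MAFG and EPAS1 were lost with median centring (limma adjusted p = 0.185, 0.134 and 0.106), and that of EPAS1 also without sh-PRLR replicate 3 or any single sh-Ctrl array (limma adjusted p from 0.0533 to 0.104). A second MAFG probe set, 224466_s_at, gave 0.05. With probe sets averaged, MAFG gave 0.22, NFE2L1 0.25 and EPAS1 0.03, the last with its sign turned, and their calls were lost (limma adjusted p = 0.419, 0.0518 and 0.982).

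The central factors of this regulation, named after their values were seen, had smaller differences. NFE2L2, which encodes NRF2, read 13.25 on each sh-PRLR array, against 13.17, 13.09 and 13.13 in sh-Ctrl, without overlap and with a difference of 0.12 (limma adjusted p = 0.119). BACH1, the repressor, averaged 10.76 ± 0.13 in sh-PRLR and 10.59 ± 0.10 in sh-Ctrl (0.17, limma adjusted p = 0.274). KEAP1, which marks NRF2 for degradation, averaged 10.54 ± 0.11 in sh-PRLR and 10.64 ± 0.02 in sh-Ctrl (-0.11, limma adjusted p = 0.475). Its groups did not overlap, with the highest sh-PRLR array at 10.61 and the lowest sh-Ctrl array at 10.62. None of these 3 passed, and mRNA levels do not give the amount or location of the proteins.

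**Figure D3:**
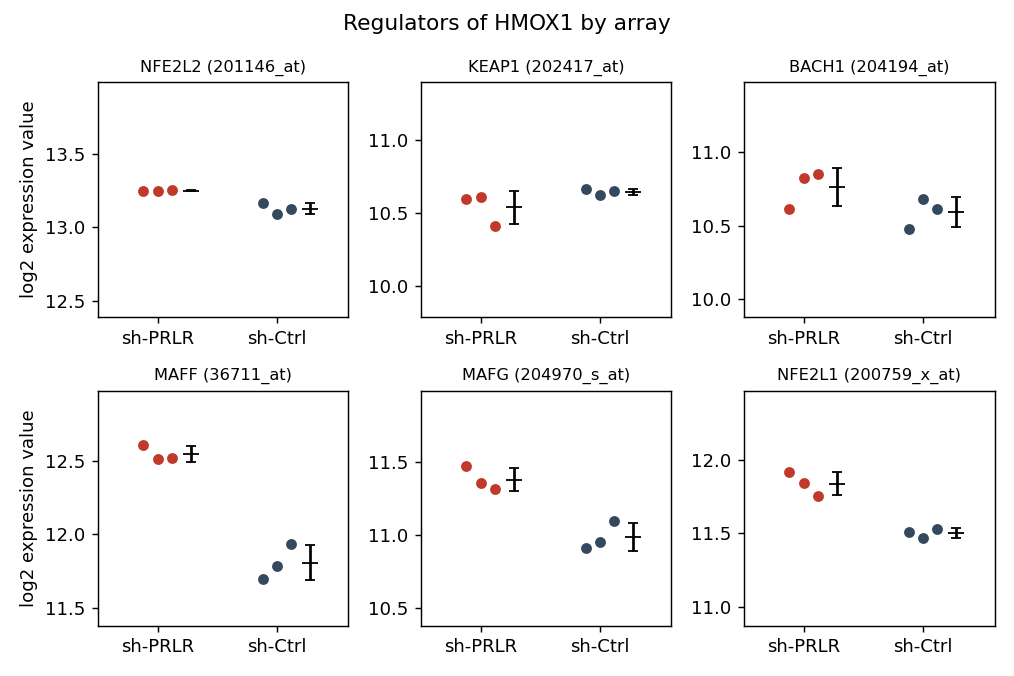
Log2 expression value on every array (points, sh-PRLR left and sh-Ctrl right) of 6 regulators of HMOX1, with the group mean and SD (bars, n = 3 each); all panels span the same number of log2 units. MAFF, MAFG and NFE2L1 sit higher on every sh-PRLR array, NFE2L2 differs by 0.12, and BACH1 overlaps between the groups.

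Of 11 other BACH1 and NRF2 target genes 10 rose, with a median of 0.65. The list was drawn up with earlier results of these arrays known, so this count is not independent evidence of its direction. GCLM, the modifier subunit of glutamate-cysteine ligase, averaged 13.52 ± 0.05 in sh-PRLR and 12.86 ± 0.04 in sh-Ctrl (0.65, limma adjusted p = 3.8e-05). PIR, pirin (0.76), GCLC, the catalytic subunit beside GCLM (0.54), and SRXN1, sulfiredoxin (0.73), rose too. PIR was read by a single probe set, 207469_s_at, so it had no value without probe sets named _x_at or _s_at. HMOX1, at 1.25, lay above the 10 that rose, whose differences ran up to 0.96 for OSGIN1, a gene named after its value was seen. HMOX1 was chosen with its difference known, so this rank is a description. AKR1C2 and AKR1C1, which are not on the list, gave 1.30 and 1.18.

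In iron transport 1 gene rose and 4 fell of 16, with a median of -0.11. SLC39A8, a zinc transporter that also carries iron and manganese, averaged 10.07 ± 0.09 in sh-PRLR and 10.72 ± 0.08 in sh-Ctrl (-0.65, limma adjusted p = 0.00087). STEAP3, the endosomal ferrireductase that reduces iron delivered by transferrin, read 8.68, 8.67 and 8.35 in sh-PRLR, against 9.31, 9.35 and 9.45 in sh-Ctrl. No array overlapped, and the difference was -0.81 (SE 0.11, limma adjusted p = 0.00253). HEPH, hephaestin, a ferroxidase that works beside ferroportin, fell by the most of the 4, with a probe set at 6.45 ± 0.29 in sh-PRLR and 7.71 ± 0.05 in sh-Ctrl (-1.26, limma adjusted p = 0.00499). Its other probe set, which stands in when _s_at names are left out, lay at 3.55 in sh-PRLR and 3.23 in sh-Ctrl.

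CYBRD1, a ferric reductase of the plasma membrane, went the other way and rose, averaging 11.06 ± 0.07 in sh-PRLR and 10.69 ± 0.08 in sh-Ctrl (0.37, limma adjusted p = 0.00881). That call was lost with median centring (limma adjusted p = 0.0973), and a second CYBRD1 probe set, 217889_s_at, gave -0.11. STEAP4, named after its value was seen, was the fourth gene that fell (-0.59, limma adjusted p = 0.0406). When all probe sets of a gene were averaged, the calls of SLC39A8, HEPH and CYBRD1 were lost, with differences of -0.30, -0.47 and 0.13. STEAP3 kept its call in that setting and lost it without _x_at and _s_at names, where a dimmer probe set gave -0.46.

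Heme synthesis genes other than FECH had a median of -0.21, and 1 of 7 fell. This was UROS, uroporphyrinogen III synthase, at 9.62 ± 0.17 in sh-PRLR and 10.04 ± 0.10 in sh-Ctrl (-0.42, limma adjusted p = 0.0293). Its call was lost without sh-PRLR replicate 2, sh-Ctrl replicate 1 or sh-Ctrl replicate 2 (limma adjusted p from 0.0907 to 0.126) and with median centring (limma adjusted p = 0.062). The other UROS probe sets gave -0.14 with overlap (1568781_at) and -0.72 without (232560_at). The call was also lost without _x_at and _s_at probe sets, where UROS gave -0.14, and with probe sets averaged, where it gave -0.43 (limma adjusted p = 0.66 and 0.107). Among heme transporters and carriers 2 of 12 fell, with a list median of -0.08. ABCB10, a transporter of the mitochondrial inner membrane, gave -0.32 (limma adjusted p = 0.0223), and ABCG2, an exporter that carries porphyrins, gave -0.63 (limma adjusted p = 0.041). Each kept its call without sh-PRLR replicate 3 and lost it without any other single array (limma adjusted p from 0.0534 to 0.126), and both lost it with median centring (limma adjusted p = 0.0833 and 0.0521).

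Of 12 genes of iron regulation and ferritin handling 1 rose, with a median of -0.02. PCBP1, an iron chaperone that loads ferritin, averaged 12.96 ± 0.04 in sh-PRLR and 12.77 ± 0.07 in sh-Ctrl (0.20, limma adjusted p = 0.04). It kept the call without sh-Ctrl replicate 3 and lost it without any other single array (limma adjusted p from 0.0612 to 0.149) and with median centring (limma adjusted p = 0.521). ACO1, iron regulatory protein 1, and NCOA4, the receptor that sends ferritin to autophagy, both named after their values were seen, gave -0.19 and -0.12 without passing (limma adjusted p = 0.172 and 0.233).

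Of 17 iron-sulfur cluster assembly genes, all above the median gene level, 1 rose and 2 fell, with a median of -0.11. At that level 6.43% of genes rose and 8.17% fell. NFS1, the cysteine desulfurase that supplies sulfur, averaged 9.26 ± 0.11 in sh-PRLR and 9.71 ± 0.10 in sh-Ctrl (-0.45, limma adjusted p = 0.0168). BOLA3, a late assembly factor, fell by 0.29, and ISCU, the scaffold, rose by 0.16. NFS1 lost its call without sh-PRLR replicate 2, sh-Ctrl replicate 1 or sh-Ctrl replicate 3 (limma adjusted p from 0.0648 to 0.0772). Its other probe set, 1554321_a_at, gave 0.08 with overlap, and the average of both gave -0.19 and no call (limma adjusted p = 0.666). BOLA3 kept its call without sh-PRLR replicate 2 and ISCU without sh-Ctrl replicate 3, and each lost it without any other single array (limma adjusted p from 0.0744 to 0.165) and with median centring (limma adjusted p = 0.117 and 0.622).

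Of 13 ferroptosis genes, which govern cell death by iron-dependent lipid peroxidation, 3 rose and 3 fell, with a median of 0.11. SAT1, which breaks down polyamines, averaged 13.72 ± 0.07 in sh-PRLR and 12.80 ± 0.05 in sh-Ctrl (0.92, limma adjusted p = 1.2e-05). All 3 SAT1 probe sets were higher, by 0.92, 0.95 and 1.02. AIFM2, the ferroptosis suppressor FSP1, rose by 0.36, while LPCAT3, which puts polyunsaturated chains into phospholipids, and VDAC3, a mitochondrial channel, fell by 0.62 and 0.27. The calls of AIFM2 and VDAC3 were lost with median centring (limma adjusted p = 0.166 and 0.122), and that of LPCAT3 without sh-Ctrl replicate 1 or 2 (limma adjusted p = 0.0571 and 0.0628). A second AIFM2 probe set, 228445_at, gave 0.38 with overlap. It stands for AIFM2 without _x_at and _s_at probe sets, where the call was lost (limma adjusted p = 0.29). A second LPCAT3 probe set, 213615_at, gave -0.12 with overlap. Of the other VDAC3 probe sets, 208846_s_at gave -0.17 without overlap and 208844_at gave 0.02. With probe sets averaged, LPCAT3 gave -0.37, VDAC3 -0.14 and AIFM2 0.37, and all 3 calls were lost (limma adjusted p = 0.151, 0.295 and 0.0564).

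**Figure D4:**
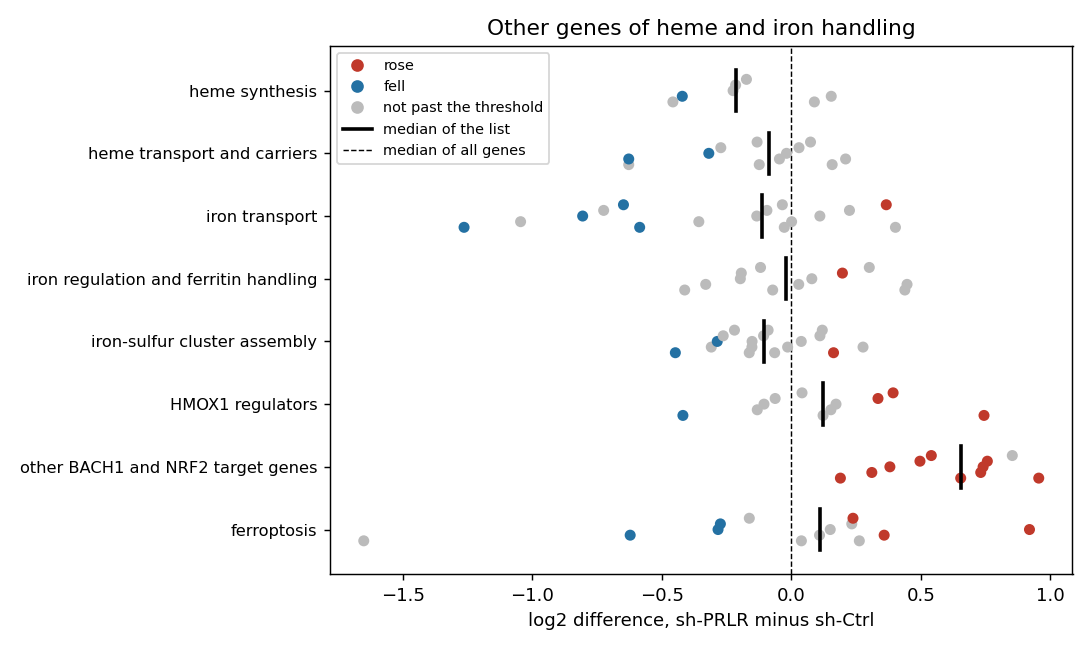
Difference of each measured list gene, sh-PRLR minus sh-Ctrl in log2 units (points, coloured by call), with the median of each list (black bar) and of all genes (dashed line). The BACH1 and NRF2 targets lie to the right of the dashed line with a median of 0.65, and iron transport holds the fall of HEPH at -1.26.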

How the data were processed

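The values deposited by the authors are log2 expression values. Per the submitters' processing notes the tools were MAS5, RMA and affy, whose roles and versions are not given in the sources used here. On a linear scale the 2% trimmed mean of every array was 500, and the values were not normalised again. No detection call was used here. Single gene symbols stood for 41091 of 54675 probe sets, outside the 62 control probe sets, and a look-up of 41037 of them by Entrez ID among RefSeq genes changed 0 symbols.

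The groups were set against each other in limma 3.58.1 under R 4.3.3 (eBayes with trend and robust), two-sided, Benjamini-Hochberg adjusted over all 19775 genes or all 41091 probe sets, with a threshold of 0.05, and the scripts were tested on simulated data. The members, the lists, the markers and the choice of this fit over the default settings were made with earlier results of these data known. From each list, up to 4 genes with the smallest p past the threshold were named. Same-numbered arrays were not paired: their deviations correlated at -0.07, 0.04 and -0.10 over 11865 genes. Figures were drawn with matplotlib 3.10.9.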

Additional observations from a re-analysis of the deposited data

How the results depend on the processing

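HMOX1 differed by 1.20 to 1.31 under 14 other settings, the ends of that range coming from single arrays left out. In these settings BLVRB kept its sign. TFRC kept its sign in 13 and was 0.22 with all probe sets of a gene averaged, where EPAS1 was 0.028. Without _x_at and _s_at probe sets HEPH was 0.32, and FTL had no probe set left. The number of genes called, 1514, was 506 with median centring, 4 with default eBayes settings and 609 with probe sets averaged. For probe sets, 1918 were called, against 584 with median centring and 0 with default settings. For related list genes, 32 in all, the counts were 14 with median centring, 0 with default settings, 16 with probe sets averaged and 18 without _x_at and _s_at probe sets. With 1 array left out, 665 to 1322 genes, 777 to 1606 probe sets and 19 to 28 list genes were called. With the replicate number as a block, 1090 genes and 26 list genes were called, and HMOX1 differed by 1.25. The cause of these moves was not tested. All 23 named list genes that passed lost the call with default settings. Of the 23, 12 lost it with median centring, 13 (besides EPAS1) with probe sets averaged and 5 with the replicate block. GCLC, GCLM, MAFF, PIR, SAT1 and SRXN1 lost it with default settings alone. PIR and SAT1 had no probe set left without _x_at and _s_at names. Dim probe sets limit SLC40A1 and the TFRC and SLC11A2 probe sets below the median gene level.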
